A study of Homo sapiens with 6 samples.

Results

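Cells make several amino acids themselves and import the rest, and the genes for both tasks share a regulator. When amino acids run short or the endoplasmic reticulum is stressed, kinases that phosphorylate the translation factor eIF2 favour translation of the transcription factor ATF4. ATF4, usually paired with a C/EBP protein, then acts on genes for serine, glycine, asparagine and proline synthesis, for cysteine production and for amino acid carriers of the plasma membrane. In cancer cells the same genes feed nucleotide synthesis, one-carbon metabolism and glutathione.

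Expression of 37 genes of this programme was followed in SKOV3 cells, an established line from an ovarian cancer that the labels call high-grade serous. They comprise 17 synthesis enzymes and related metabolic enzymes, 12 transporters, and 8 regulators and other genes linked to ATF4. The miR21 group (3 arrays) received 5 nM of a precursor of the microRNA miR21, the control group (3 arrays) a negative control precursor, each for 24 h in RPMI1640 medium with fetal bovine serum. Untransfected cells were not analysed here, and nor was the level of mature miR-21, so all differences set the miR21 precursor against the control precursor. The genes were chosen by name, with earlier results of these data known, so counts set against all genes are descriptions only. Each was read by its brightest probe set (mean of the log2 signals) among those that name a single gene. Of the 37, 36 had such a probe set, out of 19775 genes on the array. Of these, 30 lay at or above the median log2 signal of all probe sets (6.03, a signal of 65.5) and were tested among 12204 genes. Below it lay SHMT1, MTHFD1L, ALDH1L2, SLC7A3, SLC6A9 and FGF21, and no single-gene probe set was named GPT2.

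The values are MAS5 signals, a linear brightness per probe set, scaled so that the trimmed mean of each array is 500. The median signal was 117, 55.2 and 56.6 on the miR21 arrays and 125, 57.9 and 61.9 on the control arrays, for replicate numbers 1, 2 and 3, so both arrays of number 1 had brighter dim probe sets. The 2 arrays that share a number resembled each other in how they departed from their groups, and differences are therefore also given within each number. Of 9 epithelial and ovarian markers, 8 lay above the signal limit, among them the keratins, EPCAM, ERBB2 and PAX8, while WT1 did not. Of 7 fibroblast markers 2 lay above it (COL1A1 and COL1A2), and of the 4 leukocyte markers with a probe set 0 did. An RNA level in such bulk samples cannot tell fewer expressing cells from less RNA per cell.

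The labels name miR21 without an arm. The main mature RNA of that gene is hsa-miR-21-5p, which lies at chr17:59841273-59841294 on the plus strand of GRCh38.p14 and is shown with its seed, bases 2 to 8, in capitals (sequence from RefSeq).
hsa-miR-21-5p: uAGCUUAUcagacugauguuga

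The binding site of ATF4 with a C/EBP partner has the core TGATGNAA, and it was searched for on both strands in RefSeq promoter windows of GRCh38.p14 that run from 250 bases before to 50 bases after each start. A match is a description of the letters and not a bound site. Of the 37 genes 29 had a window, and SHMT2, PYCR1, PSPH, ALDH1L2, GPT2, SLC7A2, SLC7A3 and SLC7A11 had none. The 37 genes were picked as parts of the ATF4 programme, a choice that favours such matches, so the shares below are no finding. A match stood in 12 of the 29 genes with a window (41.4%), against 1217 of 27305 genes (4.46%) in the whole table. Counted by window, it stood in 14 of 53 windows (26.4%), against 1270 of 35116 (3.62%). The 14 windows hold 12 distinct sites, as the MTHFD1L site was met in overlapping windows. That site lies before some MTHFD1L starts and after another, and it is not printed below. The 12 genes were ASNS, GOT1, BCAT1, MTHFD1L, SLC1A4, SLC1A5, SLC3A2, SLC38A1, SLC7A1, CEBPG, JDP2 and FGF21. The windows below show 50 bases around the match for 6 genes whose window lies wholly before the start and for JDP2, the tested gene with a match whose signal was lower with miR21. Each is written in the orientation in which the core reads TGATGNAA, and capitals mark the core. The ASNS match is part of the nutrient-sensing response element through which amino acid shortage is known to act on that promoter.
ASNS, chr7:97872448-97872497, minus strand: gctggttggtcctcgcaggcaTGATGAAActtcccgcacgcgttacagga
GOT1, chr10:99430794-99430843, plus strand: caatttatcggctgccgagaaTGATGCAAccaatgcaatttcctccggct
BCAT1, chr12:24949121-24949170, minus strand: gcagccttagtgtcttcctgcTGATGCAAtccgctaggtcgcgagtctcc
SLC1A5, chr19:46784883-46784932, minus strand: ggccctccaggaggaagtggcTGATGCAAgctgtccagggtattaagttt
CEBPG, chr19:33374050-33374099, plus strand: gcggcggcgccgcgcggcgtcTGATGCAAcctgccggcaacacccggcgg
FGF21, chr19:48755449-48755498, minus strand: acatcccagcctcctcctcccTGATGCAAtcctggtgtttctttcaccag
JDP2, chr14:75427985-75428034, plus strand: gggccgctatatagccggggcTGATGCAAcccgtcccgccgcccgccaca

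Most of the 30 tested genes had more signal with miR21 in replicate numbers 1 and 2, and near the same signal in both groups in number 3. The median log2 difference, miR21 minus control, was 1.09 in number 1, 1.09 in number 2 and 0.0079 in number 3, where the medians of all 12204 genes were -0.03, 0.00032 and -0.00025. In number 1, 18 of the 30 were over 1 log2 unit higher, against 4.38% of all genes tested. The same count in number 2 was 18 of 30, against 5.04%, and 16 genes passed in both numbers, against 2.34%. In number 3 the count was 0 of 30, against 1.76%. None of the 30 was over 1 log2 unit lower in any of the 3 numbers, where 5.88%, 7.51% and 1.48% of all genes were. Each number holds 1 array per group, so these counts describe the arrays and carry no test.

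**Figure D1:**
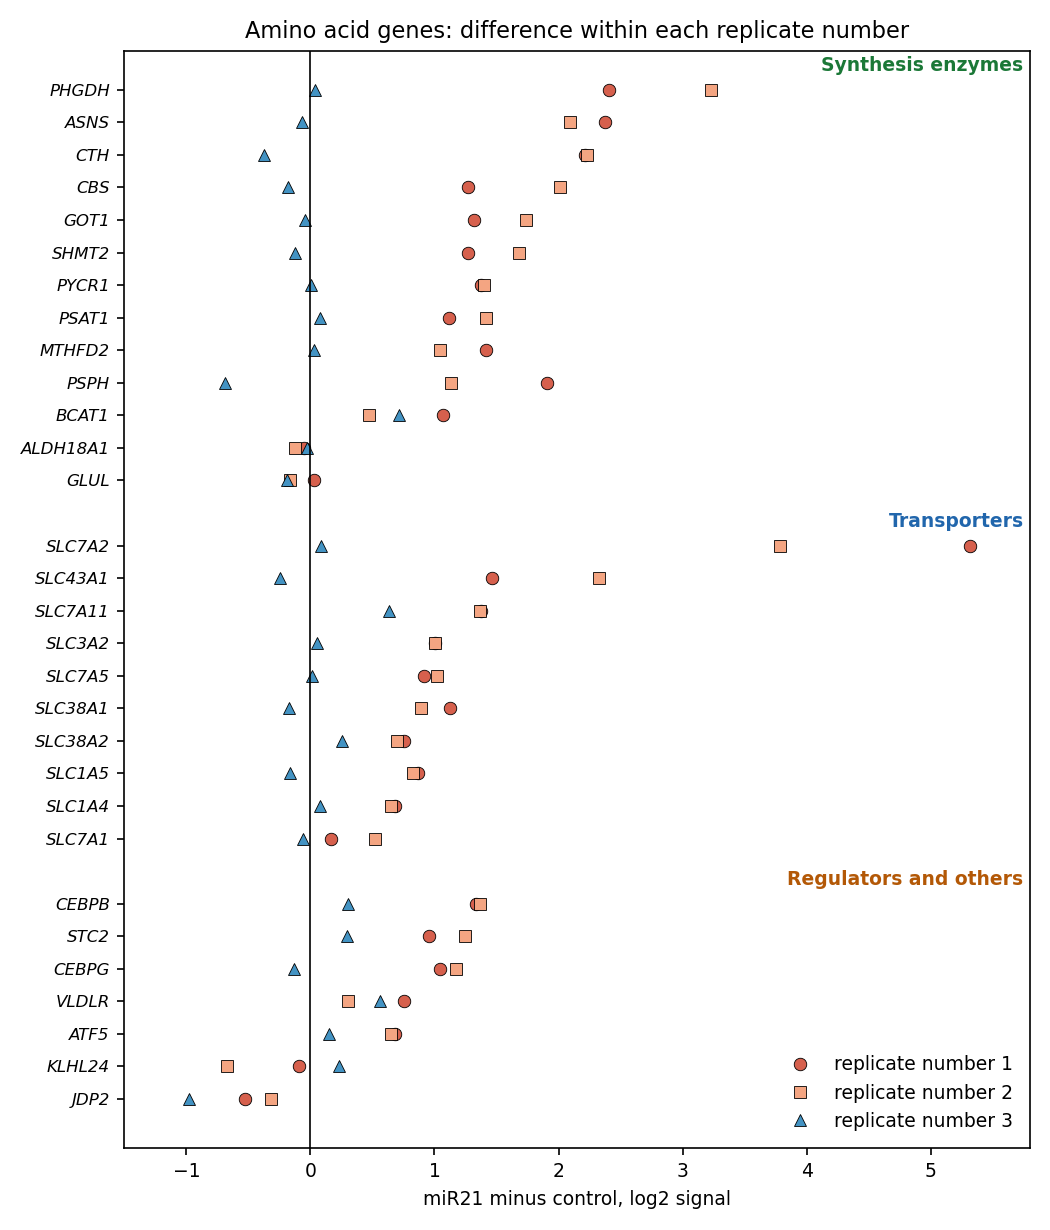
Log2 difference in signal, miR21 minus control, within replicate numbers 1 (circles), 2 (squares) and 3 (triangles) for the 30 tested genes, ordered by mean difference within synthesis enzymes, transporters and regulators or others. Circles and squares lie right of 0 for 26 of the 30 genes, while the triangles sit around 0 with a median of 0.0079.

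Over all 6 arrays the median difference of the 30 was 0.77, against -0.01 for all genes, with 26 higher and 4 lower. With the replicate numbers ignored, limma called 0 of the 30 at an adjusted p under 0.05 (0% of all 12204 genes), and 2 had an unadjusted p under 0.05, SLC7A2 and SLC7A11, against 1.18% of all genes that were higher at that level, while 0 were lower, against 1.26%. When limma fitted each replicate number as a block, it again called 0 of the 30, while 0.0328% of all genes were called. At an unadjusted p under 0.05 in the block fit 23 of the 30 were higher, against 9.82% of all genes, and 1 was lower, JDP2, against 10.3%. None of the differences below therefore passed the test, and they are given as values. Separate cultures are not named as the source of the replicates, so the p-values rest on a spread between samples that could be technical only.

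The median difference of the synthesis enzymes was larger than that of the transporters in numbers 1 and 2. The largest single difference in both numbers was that of a transporter, SLC7A2 (5.32 and 3.79). The median of the 13 tested enzymes was 1.32 in number 1, 1.41 in number 2 and -0.04 in number 3. For the 10 tested transporters it was 0.96, 0.95 and 0.03. The difference between the 2 medians, enzymes minus transporters, was thus 0.36, 0.46 and -0.07 in numbers 1, 2 and 3. Over all 6 arrays the medians were 0.93 for enzymes and 0.63 for transporters. The enzyme median lay between 0.68 (without miR21 replicate 2) and 1.38 (without miR21 replicate 3) when 1 array was left out, and that of the transporters between 0.41 and 1.10 without the same 2 arrays. Without both arrays of number 2, the enzyme median was 0.64 and the transporter median 0.49. More than 1 log2 unit higher in both numbers 1 and 2 were 10 of 13 enzymes and 4 of 10 transporters. The contrast of the 2 roles was not tested.

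**Figure D2:**
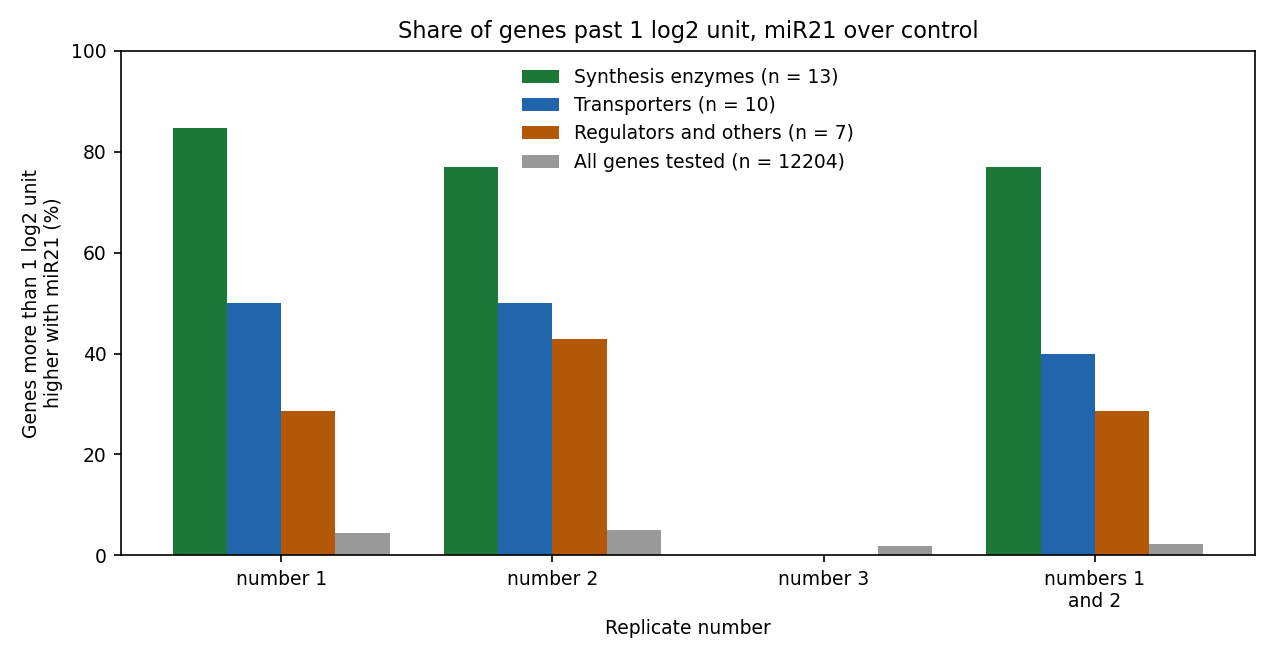
Percentage of genes over 1 log2 unit higher with miR21 than with control within replicate number 1, 2 or 3 and in both numbers 1 and 2, for 13 synthesis enzymes, 10 transporters, 7 regulators and others, and all 12204 genes tested. In number 1 the bars stand for 11 of 13 enzymes, 5 of 10 transporters and 2 of 7 regulators, against 4.38% of all genes, and in number 3 for 0 in each of the 3 roles.

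Among enzymes of serine synthesis, PHGDH, which starts the pathway from a glycolytic intermediate, had the largest mean difference. Its signal was 2925, 5368 and 454 on the miR21 arrays of numbers 1, 2 and 3, against 550.1, 571 and 442 on the control arrays. The miR21 arrays of numbers 1 and 2 thus stood far above the 3 control arrays, and the miR21 array of number 3 lay within their range. The mean log2 difference was 1.89, a 3.72-fold higher signal with miR21 (limma, SE 0.82, adjusted p = 0.9999, and with the block SE 0.52, adjusted p = 0.143). PSAT1, the aminotransferase of the next step, had signals of 19305, 18059 and 6414 with miR21 and 8908, 6788 and 6065 with control. Its groups overlapped in the same way, through the low miR21 array of number 3, with a mean difference of 0.87 (block SE 0.25, limma adjusted p = 0.148). PSPH, which releases free serine, differed by 1.91 and 1.14 in numbers 1 and 2 and by -0.69 in number 3. Its control signals of 61.2 and 65.9 in numbers 2 and 3 lay near the limit of 65.5, and its miR21 signal of 40.8 in number 3 lay under it. A second PSPH probe set above the limit differed by 1.78, 1.92 and 1.65, so the direction in number 3 depends on the probe set.

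Mitochondrial folate enzymes also differed in numbers 1 and 2. SHMT2, which splits serine into glycine and a one-carbon unit in mitochondria, differed by 1.27, 1.68 and -0.13 in numbers 1, 2 and 3. MTHFD2, the next mitochondrial folate enzyme, differed by 1.42, 1.05 and 0.03. All 3 SHMT2 probe sets (0.94 to 1.35) and both of MTHFD2 (0.78 and 0.83) were higher with miR21. The cytosolic partner SHMT1 lay below the signal limit, with a mean difference of -0.76 (exact two-sided permutation p = 0.4, where 3 arrays against 3 cannot give less than 0.1). MTHFD1L (-1.31, exact p = 0.2) and ALDH1L2 (0.34, exact p = 0.8), 2 further mitochondrial folate enzymes, were also under the limit.

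Asparagine synthetase, ASNS, is a widely used readout of ATF4 activity, and its array values are shown here after they were seen. They were 9720.2, 12151 and 1570.3 on the miR21 arrays and 1872, 2843 and 1643 on the control arrays. Numbers 1 and 2 were 2.38 and 2.10 log2 units higher, whereas the miR21 array of number 3 was below all 3 control arrays. The mean difference was 1.47, or 2.77-fold (limma SE 0.74, adjusted p = 0.9999, with the block SE 0.42, adjusted p = 0.149). GOT1, the cytosolic aspartate aminotransferase that supplies aspartate, differed by 1.32, 1.74 and -0.04.

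Enzymes of proline production split by gene, and those of cysteine production were higher with miR21 in numbers 1 and 2. PYCR1, which makes proline in mitochondria, had signals of 2047, 2272 and 885 with miR21 and 788, 861 and 882 with control. Its groups did not overlap, but the lowest miR21 array (885) barely exceeded the highest control array (882), both of number 3, which differed by 0.0041 on the log2 scale. ALDH18A1, which makes the precursor of proline from glutamate, differed by -0.05, -0.13 and -0.02, with signals of 1697, 4210.0 and 5407 with miR21 and 1759, 4597 and 5498 with control (shown after the values were seen). For this gene the replicate numbers differed far more than the 2 groups did. CTH, which releases cysteine from cystathionine, had signals of 7146, 2380.2 and 939.6 with miR21 and 1543, 509 and 1219.9 with control (shown after the values were seen). It was higher by 2.21 and 2.23 log2 units in numbers 1 and 2 and lower in number 3 (-0.38). CBS, which makes cystathionine, differed by 1.27, 2.02 and -0.18, and another of its 3 probe sets above the limit differed by 0.04 on average.

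BCAT1 had the highest difference in number 3 of the 13 tested enzymes, each read by its brightest probe set. This cytosolic enzyme transfers the amino group of leucine, isoleucine and valine. Its signals were 1769, 1376 and 2466 with miR21 and 843, 994 and 1503 with control, so the groups overlapped between numbers but each number was higher with miR21. The differences were 1.07, 0.47 and 0.71, with a mean of 0.75 (block SE 0.17, limma adjusted p = 0.120). Its 4 probe sets above the limit were all higher on average, but ranged from 0.08 to 0.86. In number 3 they differed by 0.71, 0.42, -0.07 and -0.44, so the direction in that number depends on the probe set. GLUL, glutamine synthetase, had the lowest mean difference of the enzymes (-0.11), with signals of 811, 449 and 177 with miR21 and 795, 504 and 202 with control. A second GLUL probe set differed by 0.59, so its direction depends on the probe set.

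**Figure D3:**
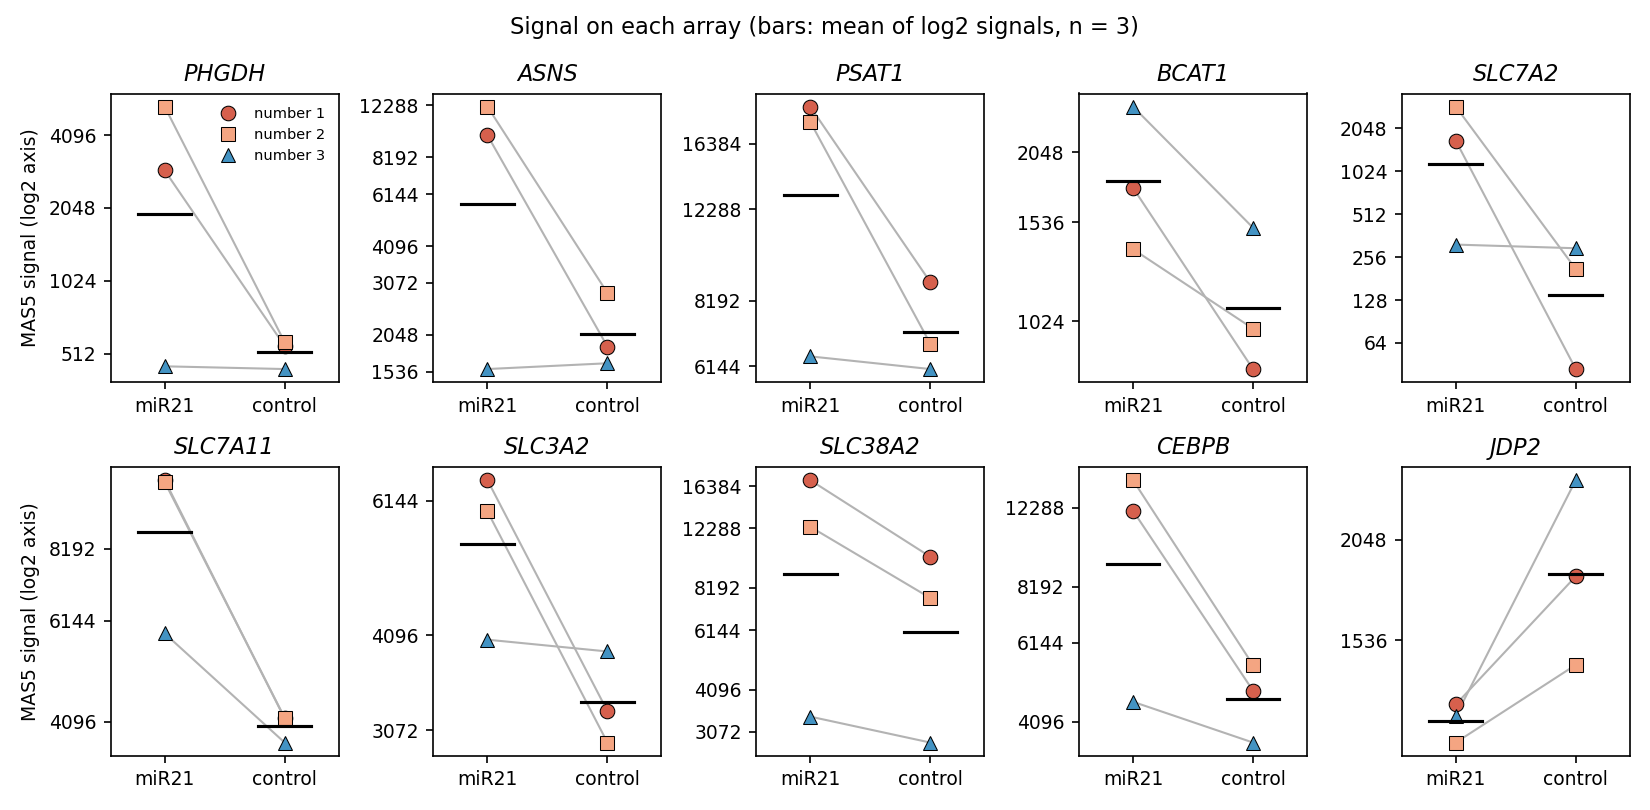
MAS5 signal on a log2 axis for 10 genes on the miR21 and control arrays. Markers and grey lines join the arrays of replicate numbers 1 (circles), 2 (squares) and 3 (triangles), and black bars are means of the log2 signals (n = 3). The grey line of number 3 is nearly flat for PHGDH, ASNS, PSAT1, SLC7A2 and SLC3A2, but not for BCAT1, SLC7A11 and JDP2, whose differences in number 3 were 0.71, 0.63 and -0.98.

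All 10 tested transporters had a positive mean difference, from 0.21 to 3.06. SLC7A2, a carrier of arginine, lysine and ornithine, had the highest. Its signals were 1677, 2911 and 313 on the miR21 arrays and 42.0, 211 and 295 on the control arrays. The groups did not overlap, although the miR21 array of number 3 exceeded the control array of that number by only 0.09 log2 units, and the differences in numbers 1 and 2 were 5.32 and 3.79. The control signal of number 1 lay below the limit of 65.5. The mean difference of 3.06 corresponds to an 8.36-fold higher signal (limma SE 0.98, adjusted p = 0.9999, with the block SE 0.83, adjusted p = 0.143). Without both arrays of number 1 the difference was 1.94 and passed in the limma block fit (adjusted p = 0.0441). It was the 1 tested gene of the 30 to do so, against 0.295% of all genes called higher. That fit rests on the pairs of numbers 2 and 3, which differed by 3.79 and 0.09, and on a prior variance drawn from all genes. The pass therefore does not show that the pairs agree. The other 2 SLC7A2 probe sets, both under the limit, differed by 0.98 and -0.73.

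SLC7A11, which imports cystine in exchange for glutamate, was the transporter that differed in every number by more than 0.6. It had signals of 10790.2, 10712 and 5837 with miR21 and 4150.3, 4163 and 3769 with control. All miR21 arrays lay above all control arrays, and the control arrays were close to each other. Its differences of 1.38, 1.36 and 0.63 averaged 1.12, a 2.18-fold higher signal (limma SE 0.32, adjusted p = 0.9999, with the block SE 0.18, adjusted p = 0.0728). Of its 3 probe sets above the limit 1 differed by -0.12, and the other differed by 0.91.

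SLC3A2, the heavy chain that carries SLC7A11, SLC7A5 and related subunits to the membrane, had signals of 6537, 5949 and 4039 with miR21 and 3256, 2962 and 3898 with control. Its groups did not overlap, and the differences were 1.01, 1.01 and 0.05. SLC7A5, the light chain for large neutral amino acids, differed by 0.92, 1.02 and 0.01. Its signal on the control array of number 3, 18988, was near that of the miR21 arrays of numbers 2 and 3, 19250.4 and 19142. In all, the groups did not overlap and miR21 was higher in 5 of the 30 genes, PYCR1, SLC7A2, SLC7A11, SLC3A2 and ATF5, against 3.38% of all genes. In 1 of the 30, JDP2, they did not overlap and miR21 was lower, against 3.27%.

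The sodium-coupled carriers of small neutral amino acids differed by less. SLC38A2 had signals of 17059, 12416 and 3406 with miR21 and 10125, 7645 and 2854 with control. Its level varied more between numbers than between groups, and each number was higher with miR21, by 0.75, 0.70 and 0.25 (block SE 0.15, limma adjusted p = 0.141). Its 3 probe sets gave mean differences between 0.567 and 0.570. SLC38A1 differed by 1.12, 0.89 and -0.17. SLC1A5, the glutamine carrier of many tumour cells, differed by 0.86, 0.83 and -0.16, and SLC1A4, its relative for alanine, serine and cysteine, by 0.68, 0.65 and 0.08. SLC43A1, a facilitative carrier of large neutral amino acids, differed by 1.46, 2.32 and -0.25, with signals of 67.9 and 80.7 in number 3 that lay close to the limit.

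SLC7A1, the other cationic carrier above the limit, contrasted with SLC7A2. Its signals were 7802, 17412 and 17835 with miR21 and 6953, 12154 and 18549 with control. The groups overlapped widely, and the mean difference was 0.21 (limma SE 0.47, adjusted p = 0.9999), the lowest of the 10 tested transporters. The cationic carrier SLC7A3 (0.74, exact two-sided permutation p = 0.7) and the glycine carrier SLC6A9 (0.48, exact p = 0.8) were under the signal limit.

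The 7 tested regulators and other genes had a median difference of 0.75 in number 1, 0.65 in number 2 and 0.23 in number 3. Over all arrays it was 0.54, and it lay between 0.28 (without miR21 replicate 1) and 0.83 (without miR21 replicate 3) when 1 array was left out. CEBPB, a C/EBP factor that pairs with ATF4, had signals of 12098, 14156 and 4539 with miR21 and 4807, 5483 and 3682 with control. It was higher by 1.33, 1.37 and 0.30 log2 units, and the miR21 array of number 3 lay inside the range of the control arrays (mean difference 1.00, block SE 0.22, limma adjusted p = 0.120). CEBPG, another C/EBP partner of ATF4, differed by 1.04, 1.17 and -0.13. ATF5, a transcription factor whose translation is controlled like that of ATF4, had signals of 1249, 1114 and 1222 with miR21 and 781, 709 and 1102 with control. Its groups did not overlap, by a narrow margin set by number 3 (0.15).

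JDP2, an AP-1 family repressor, was the tested gene with the lowest difference. Its signals were 1277, 1145 and 1235 with miR21 and 1845, 1431 and 2431 with control. All miR21 arrays lay below all control arrays, and the largest difference was in number 3 (-0.98, against -0.53 and -0.32 in numbers 1 and 2). The mean of -0.61 corresponds to a 1.53-fold higher signal in control (limma SE 0.30, adjusted p = 0.9999, with the block SE 0.17, adjusted p = 0.146). A dimmer JDP2 probe set differed by -0.36 on average. Its differences were -0.53, 0.39 and -0.93, so the direction in number 2 depends on the probe set.

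Of the other ATF4-linked genes, the secreted glycoprotein gene STC2 differed by 0.95, 1.25 and 0.29, and the lipoprotein receptor gene VLDLR by 0.75, 0.30 and 0.56. KLHL24, a ubiquitin ligase adaptor gene, differed by -0.18 on average at its brightest probe set and by 0.57 to 0.72 at its 3 other probe sets above the limit, so its direction depends on the probe set. FGF21, a hormone gene that ATF4 acts on in liver, was under the mean signal limit, but its signals were 64.2, 177 and 15.5 with miR21 and 18.2, 9.11 and 20.02 with control (shown after the values were seen). Only the miR21 array of number 2 stood above the limit (exact two-sided permutation p = 0.3).

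Different probe sets of a gene mostly had the same sign. For 19 of the 30 genes more than 1 probe set lay above the limit, and 44 of these 51 probe sets had more signal with miR21. The sign of the mean difference over all arrays differed within 3 genes, GLUL, SLC7A11 and KLHL24.

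The differences of numbers 1 and 2 ran in parallel across the 30 genes (Pearson's r = 0.886, Spearman's rho = 0.883), and 29 of 30 had the same sign, against r = 0.696 and 9115 of 12204 for all genes. Between numbers 1 and 3 r was 0.0624 with 17 of 30 of the same sign, against r = 0.160 and 6957 of 12204 for all genes. Between numbers 2 and 3 it was -0.0225 with 18 of 30, against r = 0.0774 and 6196 of 12204. These values describe the arrays, since genes on the same pair of arrays are not independent. In 20 of the 30 genes both miR21 arrays of numbers 1 and 2 were above all 3 control arrays, against 10.8% of all genes. The miR21 array of number 3 lay within the range of the control arrays in 16 of the 30, against 64.1%, and both patterns held in 11, against 5.35%. All 3 numbers were higher with miR21 in 15 of the 30, against 20.3% of all genes, and lower in 2, ALDH18A1 and JDP2, against 20.9%. In number 3 the difference lay within 0.5 log2 units of 0 for 25 of the 30, a share equal to the 83.3% of all genes. Without both arrays of number 3, limma with the block called 24 of the 30 higher and 1 lower, against 15.9% and 16.9% of all genes, whereas without both arrays of number 2 it called 0 of the 30 and 0 of all genes, with an unadjusted p under 0.05 for 8 of the 30 and 905 of 12204. Each of these fits rests on 2 pairs of arrays. What sets number 3 apart was not tested.

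**Figure D4:**
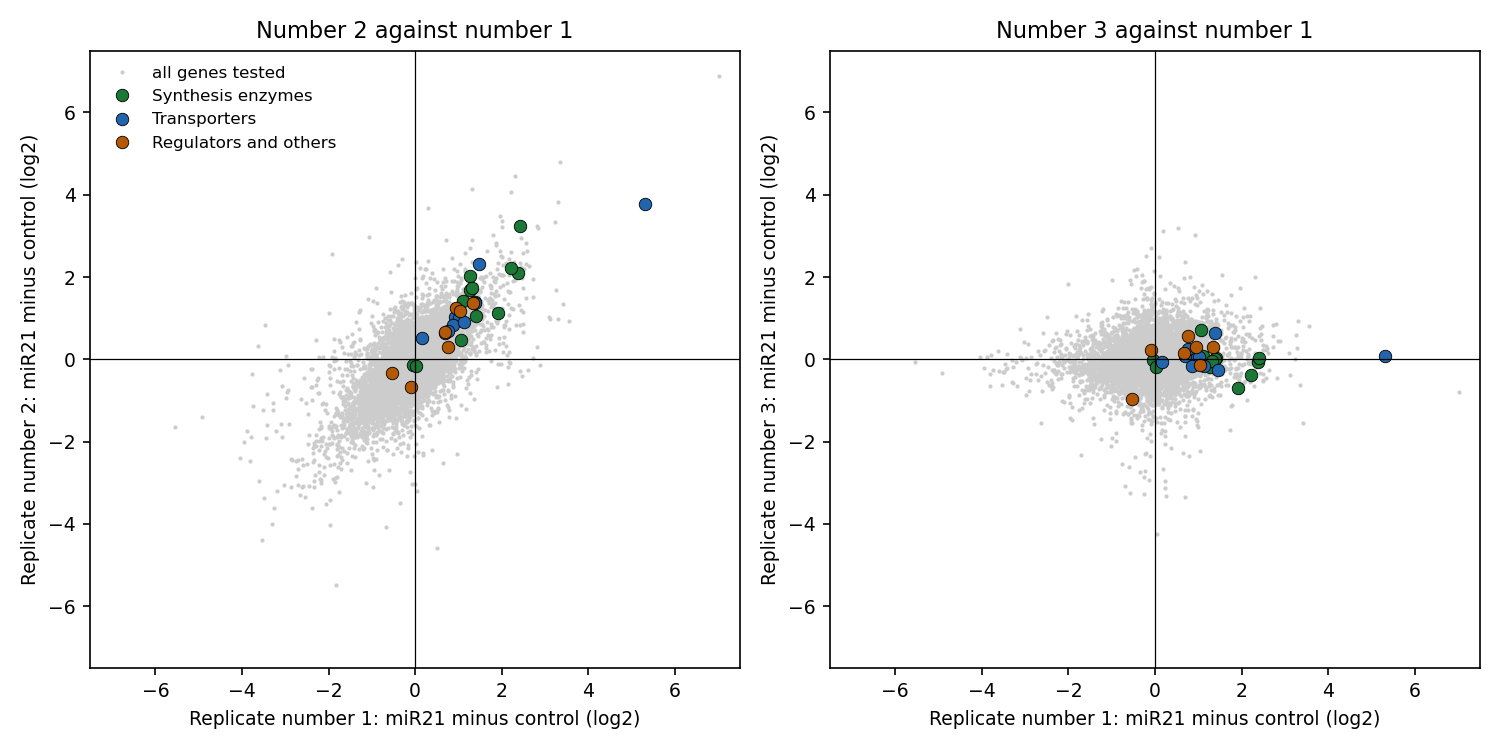
Log2 difference, miR21 minus control, of replicate number 2 (left) and number 3 (right) against number 1, for all 12204 genes tested (grey) and for the 30 amino acid genes by role. On the left the 30 genes follow the diagonal (r = 0.886), and on the right they lie along the horizontal line at 0 (r = 0.0624).

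Among the tested genes with a promoter window, those with and without the ATF4 core overlapped in their differences, and the contrast was not tested. The 10 tested genes with a match had a median of 0.65, from -0.61 (JDP2) to 1.47 (ASNS). The 15 tested genes with a window and no match had a median of 0.83, from -0.18 (KLHL24) to 1.89 (PHGDH). The 5 tested genes without a window could not be placed in either group, and they had a median of 0.94, from 0.79 (PSPH) to 3.06 (SLC7A2). The absence of these letters from this window says nothing about sites elsewhere.

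Of 25 further enzymes of amino acid metabolism 18 were tested, with a median difference of 0.01. At an unadjusted p under 0.05 in limma with the block 2 were higher and 2 lower, close to the 9.82% and 10.3% of all genes, and 0 passed the adjusted test. ARG2, the mitochondrial arginase, differed by 2.10, 2.33 and 0.21 in numbers 1, 2 and 3. A second ARG2 probe set of similar brightness differed by only 0.22 and 0.44 in numbers 1 and 2, and by 0.78 in number 3. ASS1, which makes argininosuccinate from citrulline, differed by 0.98, 0.98 and -0.03. On the lower side stood MTHFD1, the cytosolic folate enzyme (-0.94, -0.88 and -0.10), and the glycine cleavage gene GLDC (-0.93, -1.39 and -0.08). Of 25 further transporters 19 were tested, with a median of 0.19. At that unadjusted level 2 were higher and 3 lower, again near the 9.82% and 10.3% of all genes, and 0 passed the adjusted test. SLC7A6, another light chain partner of SLC3A2, was lower in every number at its brightest probe set (-0.54, -0.66 and -0.44). Its 2 other probe sets above the limit differed by 0.31 and -0.27 on average, so its direction depends on the probe set. SLC16A10, a carrier of aromatic amino acids, was lower in every number (-0.45, -1.71 and -0.98). SLC7A9 (mean 0.90) and the lysosomal carrier SLC36A1 (0.55) were higher.

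All 15 listed regulators of the ATF4 axis were tested, with medians of 1.15, 1.61 and 0.13 in numbers 1, 2 and 3. At an unadjusted p under 0.05 in limma with the block 9 were higher and 0 lower, against 9.82% and 10.3% of all genes, and 0 passed the adjusted test. ATF4 itself differed by 0.86, 1.24 and -0.24, DDIT3 by 2.55, 2.82 and 0.23, TRIB3 by 2.48, 2.57 and 0.13, NUPR1 by 2.84, 3.20 and 0.44, and DDIT4 by 2.46, 2.21 and 0.81. Among the 4 eIF2 kinases EIF2AK2 differed by -0.66, -1.32 and 0.43 and EIF2AK3 by -0.48, -1.30 and 0.38. Both were thus lower in numbers 1 and 2 and higher in number 3. EIF2AK1 (-0.13, -0.23 and 0.09) and EIF2AK4 (0.05, -0.30 and 0.04) differed by less. A dimmer EIF2AK2 probe set above the limit differed by -0.15 on average.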

How the data were processed

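MAS5 is the tool named per the submitters' processing notes, with its version not given in the sources used here. Biotin-labelled RNA was read on U133 Plus 2.0 arrays. The authors deposited 1 linear intensity per probe set and array. With 2% trimmed at each end every array averages 500, which would hide a change common to most genes. Of 54675 probe sets, 41091 name 1 gene in the platform annotation, 1801 several and 11721 none, and 62 are controls. Each gene was read by its brightest single-gene probe set, those under the median of all probe sets (log2 6.03) were left out, and no pseudocount was added.

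In R 4.3.3, limma 3.58.1 with a trended prior variance, and Benjamini-Hochberg adjustment over all 12204 genes, compared 3 miR21 with 3 control arrays, and exact two-sided permutation tests served genes under the limit. The replicate numbers come from the titles and were taken as pairs, since deviations from the group means correlated at 0.899, 0.639 and 0.636 for numbers 1, 2 and 3. Numbers 2 and 3 also correlated with each other, at 0.411 (miR21 2 with control 3) and 0.281 (miR21 3 with control 2). Unmatched pairs with an array of number 1 correlated negatively. The pairing within numbers 2 and 3 is thus less certain than that of number 1. Both fits were tested on simulated data with the spread between numbers seen here and returned the changes put in on average, but the fit without the block called none of them at an adjusted p under 0.05, so its count of 0 says little. The small number of arrays limits the precision. Members and lists were chosen with earlier results of these data known. Signals per array are shown for members whose groups do not overlap, for the 8 of smallest p with the block, for both ends of each role, and for ASNS, CTH, ALDH18A1 and FGF21, chosen after their values were seen. The other lists name up to 4 genes by smallest p with the block. ATF4, EIF2AK1, EIF2AK2, EIF2AK3 and EIF2AK4 were added after their values were seen. Alternatives were the block, normalization, a pseudocount of 16, filters, variance settings, array weights, probe set rules and arrays left out.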

Additional observations from a re-analysis of the deposited data

How the results depend on the processing

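Of 19 alternatives, those that changed a count of calls were block fits in limma. The replicate block over all arrays called 4 of all genes and 0 of the amino acid genes. Without both arrays of number 1 it called 59 genes, 1 of them an amino acid gene, and without both arrays of number 3 it called 4004, with 25 of the amino acid genes. Leaving out 1 array at a time gave 0 calls of either kind. It moved the median difference of the enzymes between 0.68 and 1.38, of the transporters between 0.41 and 1.10, of the regulators between 0.28 and 0.83 and of all 30 genes between 0.56 and 1.31. The cause was not tested. Under the other 10 alternatives these medians lay at 0.85 to 1.03, 0.57 to 0.73, 0.49 to 0.78 and 0.69 to 0.91. The array weights stopped before they converged.

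The sign of 5 of the 30 genes turned somewhere and that of the other 25 did not wherever they had a value. Among those 25, SLC7A2, SLC43A1, STC2 and VLDLR had none under the upper quartile filter, SLC7A2 none with the mean of all probe sets, and ASNS, SLC38A1 and ATF5 none with the probe set of largest SD. ALDH18A1 was at 0.032 with arrays centred on their median, 0.43 without miR21 replicate 1, 0.12 without control replicate 2, 0.25 without control replicate 3, and at its lowest -0.57 without control replicate 1. GLUL was at 0.48 without miR21 replicate 3, 0.33 without control replicate 1, 0.0016 without control replicate 2, and at its lowest -0.66 without control replicate 3. SLC7A1 was at -0.21 with the mean of all probe sets and -0.16 without control replicate 1. KLHL24 was at 0.47 with the mean of all probe sets, 0.60 with the probe set of largest SD, 0.090 without miR21 replicate 2, 0.08 without control replicate 1, 0.066 with the replicate block without both arrays of number 2, and at its lowest -0.49 without miR21 replicate 1. PSPH lay between -0.84 without miR21 replicate 1 and 2.03 without miR21 replicate 3. The cause was not tested. With 3 arrays a group and MAS5 signals, differences of dim genes such as FGF21 or PSPH are the least precise.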
